A study of Mus musculus with 8 samples.

Results

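The Hox genes encode homeodomain transcription factors, and all protein-coding members of clusters Hoxa, Hoxb, Hoxc and Hoxd were followed here in cultured mouse muscle progenitors given vehicle or melatonin. Members were taken by name, with earlier results of these data known. They are the rows of the deposited count table whose Ensembl identifier maps to a protein-coding gene of these 4 clusters in GENCODE release M21. The annotation holds 39 such genes. Of these, 33 are among the 20781 rows of the table, and 30 passed the filter on low counts and are among the 16565 genes tested. The 6 genes with no row were Hoxb1, Hoxb5, Hoxb13, Hoxd1, Hoxd12 and Hoxd13, and they were not analysed here. Hoxa2, Hoxa6 and Hoxb6 have a row but too few counts for the test.

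The cells were fibro-adipogenic progenitors (FAPs), mesenchymal cells of skeletal muscle that can turn into adipocytes or fibroblasts. They came from wild-type male mice, listed as C57BL/6 in one label and C57BL/6J in another, and from the tibialis anterior, gastrocnemius and quadriceps, all muscles of the hindlimb. The cultures were kept for 48 h and then given vehicle for 24 h (4 libraries) or melatonin, the pineal hormone, for 24 h (4 libraries). The labels call the 4 libraries of a group biological replicates, and the sources used here give neither the dose of melatonin nor the age of the mice. The extraction protocol in the labels names the longissimus dorsi, a back muscle, in place of the hindlimb muscles, and this was left as it stands.

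Hox genes lie in 4 clusters on different chromosomes, and their order along a cluster follows the order in which they are used along the body axis, low paralog numbers toward the head and high numbers toward the tail. In the limb bud, genes of the Hoxa and Hoxd clusters with high paralog numbers also set up the segments from the body wall to the digits, while several Hoxc genes with high numbers are used in the hindlimb. Fibroblasts and other stromal cells of adults keep part of this pattern as a memory of the place they came from. Hox proteins bind DNA together with TALE homeodomain partners of the Pbx, Meis and Pknox families, and Polycomb and Trithorax proteins keep Hox genes off or on.

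All 4 members of paralog group 9 passed edgeR's test between melatonin and vehicle (adjusted p under 0.05), against 36.5% of all tested genes, and the group was picked out after its values were seen. In it, Hoxb9 and Hoxc9 moved in opposite directions. The homeoboxes of these 2 genes, the stretch of coding sequence for the DNA-binding homeodomain, are shown to let a reader see how closely such paralogs resemble each other. Each was read from GENCODE M21 transcripts on GRCm38 and lies within a single coding exon. Capitals mark the 29 of 180 positions at which the pair differ.
Hoxb9 (chr11:96274659-96274838, plus strand): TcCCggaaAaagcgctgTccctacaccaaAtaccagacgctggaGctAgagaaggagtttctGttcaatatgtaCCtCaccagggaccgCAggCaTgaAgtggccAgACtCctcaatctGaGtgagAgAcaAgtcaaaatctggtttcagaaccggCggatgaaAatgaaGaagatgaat
Hoxc9 (chr15:102983930-102984109, plus strand): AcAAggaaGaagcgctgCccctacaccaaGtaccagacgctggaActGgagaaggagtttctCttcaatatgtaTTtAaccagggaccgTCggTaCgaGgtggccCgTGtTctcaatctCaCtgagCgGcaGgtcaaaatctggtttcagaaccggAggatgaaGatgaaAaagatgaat
Identity between the pair was 83.9%. The longest run of identical bases shared by transcripts of the group was 50 bases, between Hoxb9 and Hoxc9, and a run of 40 bases was shared by Hoxb9 and Hoxd9. A read that lies wholly within such a run could belong to either gene. The sources used here do not say how the authors' counting treated such reads.

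Library totals ran from 35584931 to 52401153 counts, and where a gene has no count its level could be up to that of 3 counts, or 0.0560 to 0.0805 CPM. CPM is a count divided by the library size, with TMM factors to correct for the make-up of each library, on a fixed common scale. These limits cover counting error only. The FAP label was checked against 9 marker genes (Pdgfra, Ly6a, Cd34, Dcn, Col1a1, Col3a1, Dpp4, Pi16 and Cd55), which were all detected and whose summed level was 25720 to 30620 CPM with vehicle. With melatonin the sum was 12020 to 14130 CPM, and 6 of the 9 were lower, against 18.5% of all tested genes. Most of the sum was Col1a1 (means of 13770 CPM with vehicle and 6658 CPM with melatonin) and Col3a1 (12420 and 5741 CPM). Pdgfra, Cd34 and Pi16 did not pass the test. The 5 adipocyte markers in the table (Adipoq, Plin1, Fabp4, Pparg and Cidec) were all higher, with a summed level of 112.0 to 119.0 CPM against 675.7 to 852.1 CPM. Over all tested genes, 36.5% passed the test (18.1% higher, 18.5% lower). Markers of other cell types were counted as well. Of the satellite cell or myoblast markers, 1 of 5 passed (Vcam1, lower), and Pax7 and Myf5 were not analysed here. Log2 fold changes of melatonin over vehicle were 0.82 for Myod1, 0.65 for Myog, 0.16 for Des and -0.51 for Cdh15, and none of these passed. The test was passed by 2 of 7 macrophage genes (C1qa higher, Csf1r lower) and 1 of 6 endothelial genes (Tek, higher). Of the pericyte genes, 3 of 7 passed (Abcc9 and Kcnj8 higher, Rgs5 lower). Among Schwann cell genes 1 of 5 passed (Sox10, higher), and among tenocyte genes 1 of 4 (Tnmd, lower). The summed levels of these markers are given for vehicle and then melatonin. They were 522.1 to 723.4 and 369.3 to 501.2 CPM for satellite cell and 465.0 to 710.4 and 315.2 to 590.7 CPM for macrophage genes. Endothelial genes had 29.0 to 36.8 and 47.5 to 55.8 CPM. For pericyte genes the sums were 102.2 to 135.7 and 96.1 to 141.2 CPM, and for Schwann cell genes 16.4 to 19.3 and 18.6 to 27.9 CPM. Tenocyte genes had 943.0 to 1294 and 1026 to 1238 CPM. Vcam1 made up most of the satellite cell sum (means of 542.9 and 378.9 CPM). Lyz2 did so for the macrophage sum (444.1 and 397.9 CPM) and Fmod for the tenocyte sum (1084 and 1070 CPM). The sums thus do not give amounts of a cell type. No marker in the table was at 0 in any library. Mitochondrially encoded genes took 1.05% to 1.301% of counts with vehicle and 2.09% to 2.44% with melatonin, and melatonin replicate 4 stood apart on principal component 2, at -54.41 against 18.51 to 25.47 in the other melatonin libraries. The part of these differences in the Hox results was not tested, and in bulk RNA fewer cells of a type and less RNA per cell cannot be told apart.

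The FAPs carried a Hox profile with high paralog numbers in front. Levels were compared between genes as CPM per kb of exon, which corrects for gene length. In vehicle libraries Hoxc10, a hindlimb and lumbosacral gene, stood first at 24.0 ± 0.93 CPM per kb (mean ± SD, n = 4), more than the spread above Hoxa10 at 10.5 ± 0.62 CPM per kb. Hoxa10, Hoxc11 (9.62 ± 0.53 CPM per kb) and Hoxc13 (9.54 ± 0.87 CPM per kb) followed each other with overlapping SD ranges. Then came Hoxa11 (7.30 ± 0.70 CPM per kb), a gene of the middle limb segment, and Hoxc6 (5.40 ± 0.48 CPM per kb), a thoracic gene. Those 2 stood in the opposite order when levels were set per base of the longest transcript, with Hoxc6 at 8.23 CPM per kb. Hoxd9 (4.31 ± 0.47 CPM per kb), Hoxc9 (3.94 ± 0.37 CPM per kb) and Hoxd8 (3.76 ± 0.33 CPM per kb) came next and could not be ordered beyond their spread. From the 10th gene down, Hoxc12 at 2.36 ± 0.37 CPM per kb, the only neighbours separated beyond their SD were Hoxa7 (1.68 ± 0.18 CPM per kb) and Hoxa9 (1.14 ± 0.15 CPM per kb). The lowest were Hoxb3, Hoxb6, Hoxb8 and Hoxa2, each under 0.1 CPM per kb. Other gaps also changed with the length of the longest transcript. Hoxa10 was then at 13.4 CPM per kb against 9.62 CPM per kb for Hoxc11. Hoxa7 (2.38 CPM per kb) came just above Hoxc12 (2.36 CPM per kb), and Hoxa9 was at 1.975 CPM per kb. No SD was computed at that length.

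**Figure D1:**
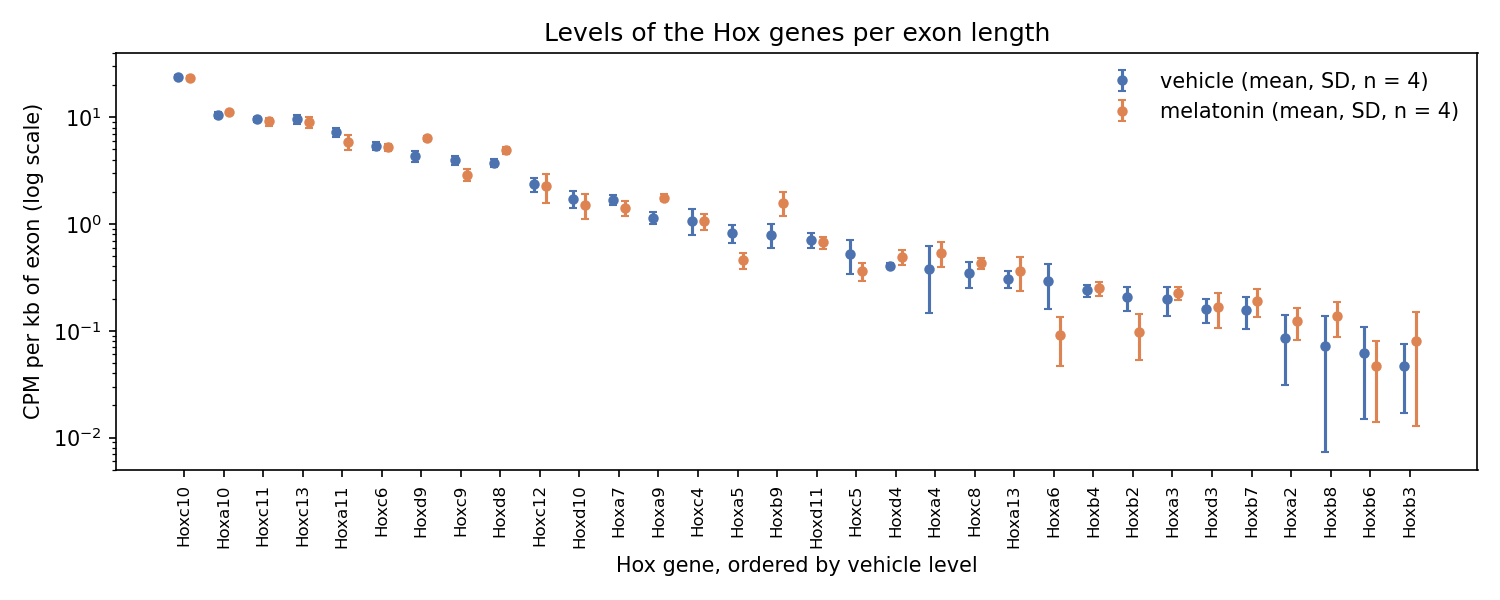
Levels of Hox genes in CPM per kb of exon (log scale) for vehicle and melatonin, as mean with SD over 4 libraries. Hoxc10 is highest in both groups at 24.0 and 23.3 CPM per kb, and the genes at the right end lie near the counting limit.

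Hoxa13, used in the hand and foot plate, was at 0.307 ± 0.053 CPM per kb with vehicle, and its digit partner Hoxd13 was not analysed here. Hoxc13, which works in hair and nail, was by contrast the 4th gene in the order. In the melatonin libraries the first 4 places were held by Hoxc10 (23.3 ± 0.94 CPM per kb), Hoxa10 (11.2 ± 0.31 CPM per kb), Hoxc11 (9.13 ± 0.77 CPM per kb) and Hoxc13 (8.97 ± 1.02 CPM per kb), as with vehicle. Hoxd9 stood 7th with vehicle and 5th with melatonin (6.35 ± 0.39 CPM per kb), where its SD range met that of Hoxa11 (5.89 ± 0.93 CPM per kb). Hoxc9 stood 8th with vehicle and 9th with melatonin (2.89 ± 0.36 CPM per kb).

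Of the 30 tested Hox genes, 7 (23.3%) passed the test between melatonin and vehicle (edgeR's quasi-likelihood test with Benjamini-Hochberg adjustment over all 16565 genes, threshold 0.05), against 36.5% of all tested genes. Hoxd9, Hoxa9, Hoxb9 and Hoxd8 rose, against a background of 18.1% for genes called higher. Hoxa5, Hoxc9 and Hoxb2 fell, against 18.5% for genes called lower. The share of Hox genes that passed was below that of all genes, so the family was not one that stood out by the number of changes. Among genes under 1 CPM on average, 1 of 8 Hox genes passed beside 19.2% of all genes. From 1 to 5 CPM it was 2 of 12 beside 34.7%, and from 5 to 50 CPM it was 4 of 10 beside 39.2%. The median log2 fold change, melatonin over vehicle, was 0.03 over the 30 Hox genes and 0.01 over all tested genes. In the same 7 genes, and in the untested Hoxa6, the 4 melatonin libraries did not overlap with the 4 vehicle libraries, which was so for 37.7% of all tested genes.

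**Figure D2:**
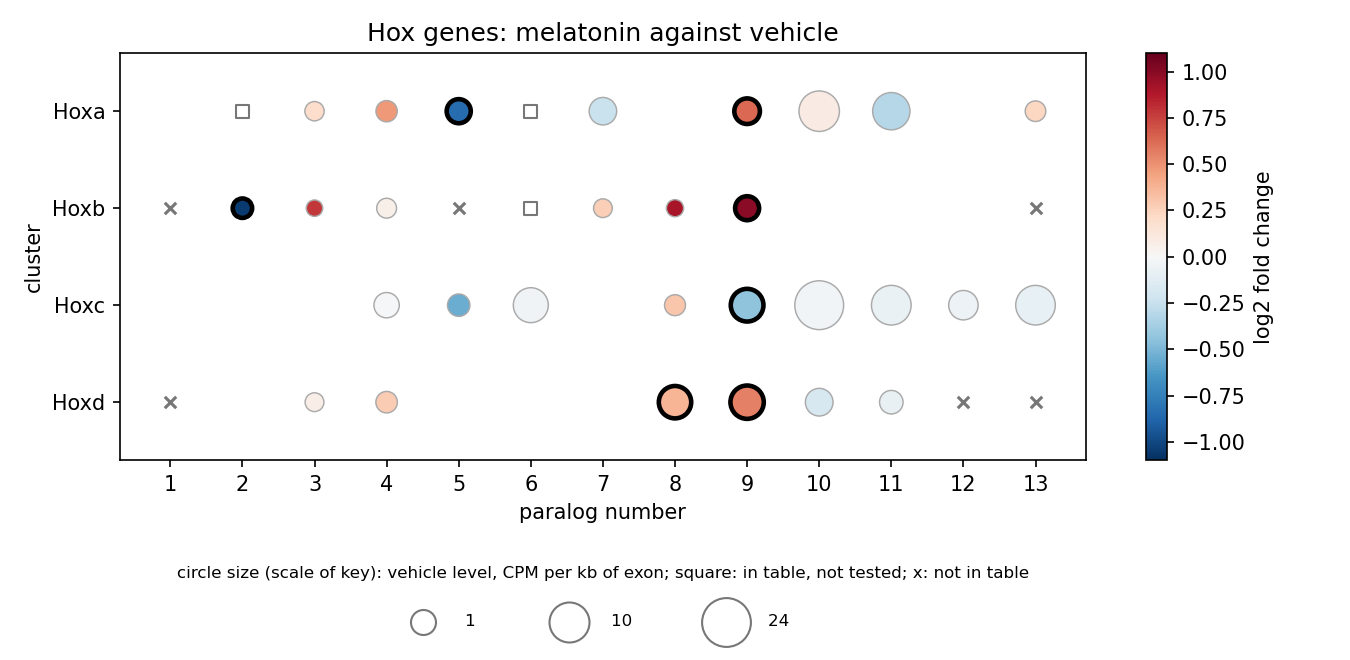
The Hox genes by cluster (rows) and paralog number (columns), with colour for the log2 fold change of melatonin over vehicle, circle size for the vehicle level in CPM per kb of exon, and a black edge for the 7 genes that passed the test. Column 9 holds 4 of the 7, of which Hoxa9, Hoxb9 and Hoxd9 are higher and Hoxc9 is lower, and no gene from column 10 on has a black edge.

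Taken by cluster, 2 of 9 tested genes passed in Hoxa (1 higher, 1 lower), 2 of 6 in Hoxb (1 higher, 1 lower), 1 of 9 in Hoxc (lower) and 2 of 6 in Hoxd (both higher), against 36.5% of all tested genes. By paralog number, 1 of 9 passed among groups 1 to 4, 2 of 8 among groups 5 to 8 and 4 of 13 among groups 9 to 13. All 4 of those last calls were in group 9, a pattern that was noticed after the values were seen. Of the 9 genes of groups 10 to 13, 0 passed in edgeR, DESeq2 or limma-voom, and 1 of them, Hoxa11, had an unadjusted p under 0.05 in edgeR (0.0317).

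Hoxd9 (ENSMUSG00000043342, chr2:74697727-74700208 on GRCm38, plus strand), a gene of the lumbar region and the upper limb segment, had 8.09, 9.44, 8.86 and 10.5 CPM in vehicle replicates 1 to 4. In melatonin replicates 1 to 4 it had 14.2, 14.2, 12.5 and 13.3 CPM. The lowest melatonin library lay above the highest vehicle library. Its log2 fold change was 0.56 ± 0.10 (SE), or 1.47-fold, with an adjusted p of 0.00203 (edgeR, Benjamini-Hochberg).

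Hoxa9 (ENSMUSG00000038227, chr6:52223100-52231089, minus strand), best known outside patterning as a regulator of blood progenitors, had 7.36, 6.43, 6.38 and 5.31 CPM with vehicle. With melatonin it had 10.2, 10.6, 9.74 and 8.93 CPM. Again every melatonin library was above every vehicle library. Its log2 fold change came to 0.63 ± 0.12, or 1.55-fold, with an adjusted p of 0.00224 (edgeR, Benjamini-Hochberg). Of its exonic bases, 1.5% are also those of the microRNA gene Mir196b.

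Hoxb9 (ENSMUSG00000020875, chr11:96271457-96276595, plus strand), which acts with the other group 9 genes in the thoracic skeleton, had the lowest CPM of the group. Per kb of exon its SD range met that of Hoxa9. The levels were 0.795 ± 0.203 and 1.14 ± 0.15 CPM per kb with vehicle, and 1.59 ± 0.39 and 1.77 ± 0.13 CPM per kb with melatonin. Hoxb9 had 1.97, 2.80, 1.64 and 1.76 CPM with vehicle and 3.27, 3.45, 4.14 and 5.47 CPM with melatonin. The groups did not overlap, and melatonin replicate 4, the library that stood apart, was the highest. This gave a log2 fold change of 0.996 ± 0.22, or 1.99-fold, with an adjusted p of 0.00594, against 0.84 with an adjusted p of 0.00832 without melatonin replicate 4 (edgeR, Benjamini-Hochberg).

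Hoxc9 (ENSMUSG00000036139, chr15:102976439-102985099, plus strand), a thoracic gene that in motor neurons marks the trunk level, went the other way. It had 9.23, 10.3, 10.3 and 8.48 CPM with vehicle and 8.07, 7.37, 6.48 and 6.17 CPM with melatonin. All melatonin values lay below all vehicle values, with a narrow gap. Hoxc9 had a log2 fold change of -0.45 ± 0.12, or 1.36-fold lower, with an adjusted p of 0.0147 (edgeR, Benjamini-Hochberg). With library totals alone, without TMM factors, it was -0.29 with an adjusted p of 0.0672. That scaling shifted all genes together, their median going from 0.01 to 0.17 on the log2 scale.

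**Figure D3:**
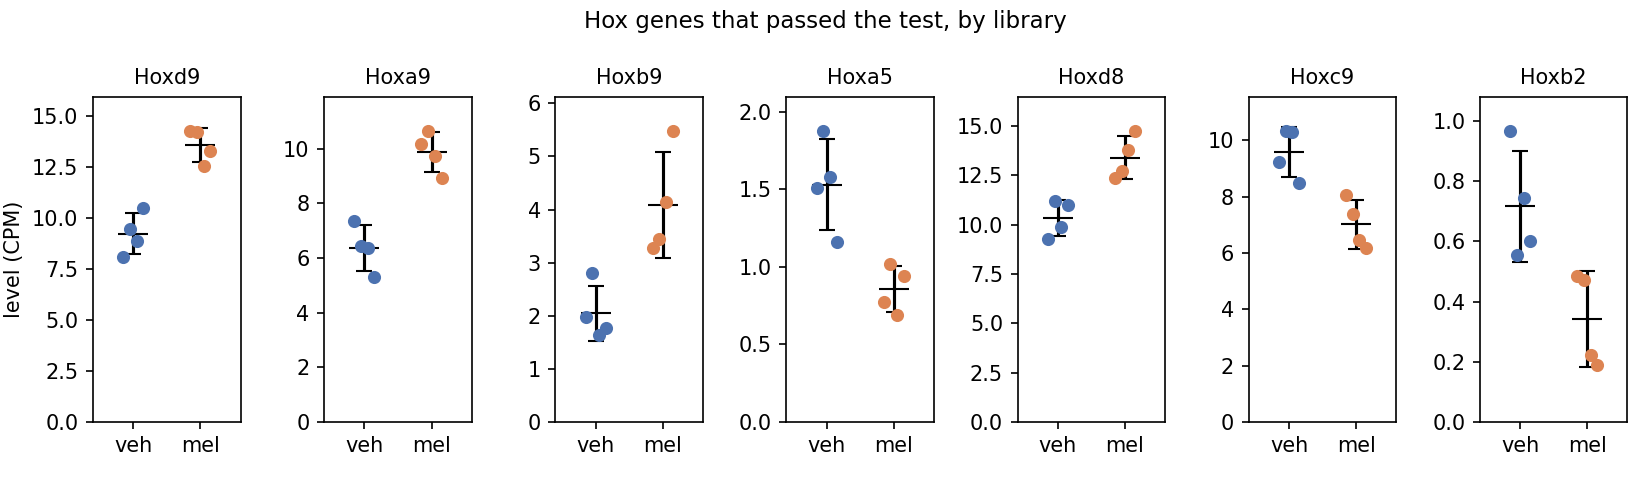
Levels in CPM of the 7 Hox genes that passed the test, with 1 point per library and the mean with SD per group (n = 4). Hoxd9, Hoxa9, Hoxb9 and Hoxd8 are higher and Hoxa5, Hoxc9 and Hoxb2 are lower with melatonin, with no overlap between the groups in any panel.

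Ratios within a library do not depend on how libraries are scaled. The ratio of Hoxc9 to Hoxd9 counts was 1.14, 1.09, 1.16 and 0.810 in vehicle replicates 1 to 4. In melatonin replicates 1 to 4 it was 0.567, 0.519, 0.518 and 0.465. In counts, which are not corrected for gene length, Hoxc9 exceeded Hoxd9 in 3 of 4 vehicle libraries and in no melatonin library. Per kb of exon the vehicle mean of Hoxc9 (3.94 ± 0.37 CPM per kb) was not above that of Hoxd9 (4.31 ± 0.47 CPM per kb). The change of the ratio between groups does not depend on gene length. The ratio of Hoxa9 to its cluster neighbour Hoxa10 was 0.162 to 0.207 with vehicle and 0.236 to 0.296 with melatonin. That of Hoxc9 to Hoxc10 was 0.196 to 0.221 and 0.135 to 0.177. In both of these the groups did not overlap, and the group 9 gene moved against its neighbour in opposite directions in the Hoxa and Hoxc clusters. The ratio of Hoxd9 to Hoxd10 was 2.25 to 3.85 with vehicle and 3.59 to 6.51 with melatonin, where the groups overlapped.

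**Figure D4:**
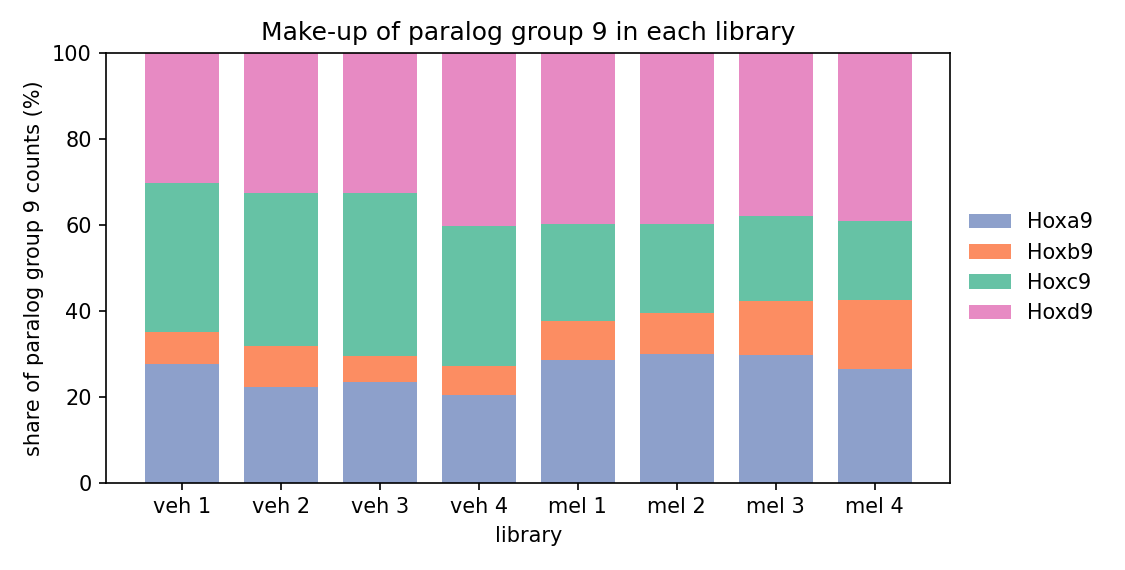
Share of the counts of paralog group 9 that fell on Hoxa9, Hoxb9, Hoxc9 and Hoxd9 in each library, in percent. Hoxc9 takes 32.6% to 37.9% with vehicle and 18.2% to 22.6% with melatonin.

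Hoxd8 (ENSMUSG00000027102, chr2:74704615-74707933, plus strand), the next gene after Hoxd9 in its cluster, had 9.28, 11.2, 9.86 and 10.99 CPM with vehicle. With melatonin it had 12.4, 12.7, 13.8 and 14.7 CPM. The groups did not overlap, and the highest vehicle library was close to the lowest melatonin library. Its log2 fold change was 0.38 ± 0.10, or 1.297-fold, with an adjusted p of 0.0145 (edgeR, Benjamini-Hochberg). The other group 8 genes did not pass, with Hoxc8 at 0.30 ± 0.24 and Hoxb8 at 0.91 ± 0.64 on the log2 scale.

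Hoxa5 (ENSMUSG00000038253, chr6:52201754-52204587, minus strand), needed for lung and neck development, had 1.51, 1.88, 1.58 and 1.16 CPM with vehicle. With melatonin it had 0.775, 1.02, 0.691 and 0.939 CPM. Every melatonin library was below every vehicle library. For Hoxa5 the log2 fold change was -0.84 ± 0.22, or 1.79-fold lower, with an adjusted p of 0.0128 (edgeR, Benjamini-Hochberg). Its group 5 partner Hoxc5 had 2.19, 1.69, 1.80 and 0.842 CPM with vehicle and 0.929, 1.205, 1.36 and 0.966 CPM with melatonin. Vehicle replicate 4 was the lowest of the 8 libraries, so the groups overlapped. The log2 fold change of Hoxc5 was -0.54 ± 0.29 with an adjusted p of 0.173, and it was -0.76 with an adjusted p of 0.0264 without vehicle replicate 4 (edgeR, Benjamini-Hochberg). Of the exonic bases of Hoxc5, 166 (5.4%) are also those of Hoxc10 on the same strand. As Hoxc10 had the highest level of all Hox genes, the level of Hoxc5 is uncertain.

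Hoxb2 (ENSMUSG00000075588, chr11:96350525-96354012, plus strand), a gene of the hindbrain, rested on few counts, 136 over the vehicle libraries and 64 over the melatonin libraries. It had 0.966, 0.556, 0.745 and 0.602 CPM with vehicle and 0.484, 0.473, 0.224 and 0.188 CPM with melatonin. The groups did not overlap, and melatonin replicates 3 and 4 were the lowest. The log2 fold change was -1.06 ± 0.36, or 2.08-fold lower, with an adjusted p of 0.0457 (edgeR, Benjamini-Hochberg). The call was lost when any of vehicle replicates 1 to 4 (adjusted p of 0.129, 0.0545, 0.0920 and 0.0669) or melatonin replicate 3 or 4 (0.118 and 0.0860) was left out (edgeR, Benjamini-Hochberg). Of its exonic bases, 27.3% lie opposite an exon of the antisense gene Hoxb3os, and since the sources used here do not say whether strand was used, reads from such genes cannot be told apart.

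The 3 genes with the smallest p among those that did not pass were Hoxa11, Hoxc5 and Hoxa7. Hoxa11, which patterns the forearm and lower leg, had 15.5, 18.9, 15.6 and 16.8 CPM with vehicle and 11.9, 15.98, 11.5 and 14.5 CPM with melatonin. Melatonin replicate 2 lay within the vehicle range and the other melatonin libraries lay below it. The log2 fold change was -0.31 ± 0.12 with an adjusted p of 0.0774, and it was -0.39 with an adjusted p of 0.0378 without melatonin replicate 2 (edgeR, Benjamini-Hochberg). Of its exonic bases, 35.0% lie opposite the antisense gene Hoxa11os. Hoxa7, a trunk gene, had 4.49, 5.37, 4.30 and 5.15 CPM with vehicle and 3.64, 4.94, 4.22 and 3.51 CPM with melatonin, with a log2 fold change of -0.24 ± 0.14 and an adjusted p of 0.220 (edgeR, Benjamini-Hochberg). Its groups overlapped.

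Hoxc10 and Hoxa10, the Hox genes with the highest CPM, did not pass. Hoxc10 was at 45.8 ± 1.78 CPM with vehicle and 44.5 ± 1.79 CPM with melatonin, a log2 fold change of -0.04 ± 0.06 with an adjusted p of 0.650 (edgeR, Benjamini-Hochberg). Hoxa10 was at 34.3 ± 2.02 and 36.6 ± 1.001 CPM, with a log2 fold change of 0.09 ± 0.07 and an adjusted p of 0.314. Hoxa10 passed only with library totals alone, at 0.25 with an adjusted p of 0.0191 (edgeR, Benjamini-Hochberg). Hoxc11, Hoxc12, Hoxc13, Hoxd10 and Hoxd11 had log2 fold changes of -0.18 to -0.06, and none passed. With library totals alone Hoxc10, Hoxc11, Hoxc12, Hoxc13 and Hoxd11 turned positive, still without passing.

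Hoxa3, Hoxa4, Hoxb3, Hoxb4, Hoxc4, Hoxd3 and Hoxd4, which have low paralog numbers, had group means under 3 CPM and did not pass. Their log2 fold changes ran from -0.02 (Hoxc4) to 0.77 (Hoxb3). Hoxb3 had only 0 to 26 counts in a library, and 52.9% of its exonic bases lie opposite Hoxb3os. Hoxd3 and Hoxd4 share 62.3% and 52.3% of their exonic bases with other genes on the same strand, each with the other among them, so their levels are uncertain. Hoxb7, Hoxc6 and Hoxa13 had 0.27 ± 0.37, -0.05 ± 0.10 and 0.24 ± 0.29 on the log2 scale and did not pass either.

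Of the 3 untested genes, Hoxa6 had 12, 9, 7 and 21 counts with vehicle and 7, 3, 3 and 2 counts with melatonin. The values did not overlap once scaled to CPM, at 0.153 to 0.421 with vehicle and 0.0537 to 0.136 with melatonin. In the fit without a filter its log2 fold change was -1.64 ± 0.53 with an adjusted p of 0.0404 (edgeR, Benjamini-Hochberg). Hoxa2 had 28 counts over the vehicle and 41 over the melatonin libraries, and Hoxb6 had 23 and 16. Both had overlapping groups.

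On the TMM scale the summed Hox level overlapped between the groups, while the shares of 3 clusters did not. Summed over the 33 genes, the level was 209.1 to 231.3 CPM with vehicle and 211.8 to 230.2 CPM with melatonin. As a share of all counts without TMM scaling, it was 0.0196% to 0.0219% with vehicle and 0.0228% to 0.0241% with melatonin, so that the groups did not overlap on that scale. Of the Hox counts, cluster Hoxc took 52.9% to 56.4% with vehicle and 49.4% to 51.8% with melatonin. Cluster Hoxd took 11.3% to 14.2% and 15.5% to 15.98%, and Hoxb took 1.52% to 2.05% and 2.32% to 3.50%. Hoxc was thus lower, and Hoxd and Hoxb higher, with melatonin, without overlap between the groups. Shares are not independent, since any rise lowers the others, and they do not show that every gene of a cluster moved. In Hoxb, Hoxb9 passed as higher and Hoxb2 as lower. In Hoxd only Hoxd8 and Hoxd9 passed, and the others had log2 fold changes of -0.18 (Hoxd10) to 0.28 (Hoxd4). In Hoxc only Hoxc9 passed. Shares without the genes that passed were not tested. Hoxa took 31.1% ± 1.121 and 31.2% ± 1.05 (SD, n = 4), and overlapped. By paralog number the shares overlapped throughout. Groups 9 to 13 took 80.6% ± 0.81 with vehicle and 80.3% ± 0.72 with melatonin, groups 5 to 8 took 15.1% ± 0.36 and 15.3% ± 0.43, and groups 1 to 4 took 4.27% ± 0.45 and 4.33% ± 0.30.

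The windows from 250 to 51 bases before the RefSeq start sites of Hoxa9, Hoxd9 and Hoxd8 are shown because these genes rose together and the last pair are neighbours. They were read from RefSeq on GRCm38.p6, where 4 of the 7 called genes had an entry (these 3 and Hoxa5), and Hoxb2, Hoxb9 and Hoxc9 are named only. Both strands were searched for 4 motifs. TGATNNAT is bound by PBX together with HOX proteins. AGGTCA is the half-site of nuclear receptors such as the RORs. CACGTG is an E-box, bound by clock factors and others. TATAAA is the core promoter box that places the polymerase. Capitals mark the only match to any of these motifs in the windows shown.
Hoxa9 (chr6:52227421-52227620, minus strand): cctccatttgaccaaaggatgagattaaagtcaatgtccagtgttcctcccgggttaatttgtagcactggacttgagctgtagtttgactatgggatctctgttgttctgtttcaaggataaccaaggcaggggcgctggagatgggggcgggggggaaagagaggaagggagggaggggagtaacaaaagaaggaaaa
Hoxd9 (chr2:74697513-74697712, plus strand): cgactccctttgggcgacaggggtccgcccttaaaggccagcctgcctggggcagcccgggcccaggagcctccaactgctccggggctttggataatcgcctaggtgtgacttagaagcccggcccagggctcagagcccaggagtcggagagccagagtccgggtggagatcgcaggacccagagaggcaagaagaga
Hoxd8 (chr2:74704365-74704564, plus strand): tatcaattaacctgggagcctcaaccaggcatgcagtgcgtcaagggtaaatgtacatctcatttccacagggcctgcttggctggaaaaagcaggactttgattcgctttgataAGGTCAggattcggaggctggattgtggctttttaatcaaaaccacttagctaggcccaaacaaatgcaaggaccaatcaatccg
The match is AGGTCA in the Hoxd8 window. Of all 32851 RefSeq windows of the same length and position, 11.4% hold this motif, and 6 of the 24 windows of Hox genes do. TGATNNAT is held by 6.44% of all windows. For CACGTG this share is 4.34%, and for the core promoter box it is 9.14%. Each of these 3 motifs is held by 3 of the 24 Hox windows. A match in a window is a description of its letters and not of a bound site. The Hoxd9 window overlaps an exon of Gm28793, a non-coding gene on the other strand. The Hoxa9 window lies within the annotated span of Hoxa9, before a start site inside the gene. The Hoxd8 and Hoxd9 windows lie outside the spans of their genes.

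The genes whose pattern over the 8 libraries was most like that of Hoxd9, the Hox gene with the smallest p, were Tprn, Leng1 and Vat1. Pearson's r of log2 CPM with Hoxd9 was 0.993 for Tprn, 0.991 for Leng1 and 0.983 for Vat1, the highest of 13567 genes compared. By Spearman correlation the order differed, with 3 genes tied at the top, of which Tprn was 1, and with Leng1 and Vat1 at 0.976. These values describe 8 libraries in 2 groups, so the difference between the groups makes up much of each pattern.

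Hox proteins work with TALE homeodomain partners, and 5 of 11 TALE genes passed (3 higher, 2 lower), with a median log2 fold change of 0.16 against 0.01 over all genes, of which 36.5% passed. Tgif1, a repressor of the family, fell from 53.2, 52.3, 52.5 and 42.6 CPM in the vehicle libraries to 31.4, 30.5, 31.1 and 30.2 CPM with melatonin. Its log2 fold change was -0.70 ± 0.08 with an adjusted p of 1.2e-04 (edgeR, Benjamini-Hochberg). Pbx2 rose by 0.34 ± 0.08 on the log2 scale, from 41.3 ± 3.9 to 52.3 ± 1.55 CPM. Pknox2 rose by 0.36 ± 0.10, with a call that was lost without vehicle replicate 2 or 3 (adjusted p of 0.0501 and 0.0513, edgeR, Benjamini-Hochberg). Meis1 (0.24 ± 0.11, adjusted p of 0.105) and Meis2 (0.04 ± 0.08, adjusted p of 0.745) did not pass, and Meis1 passed with library totals alone at 0.40 with an adjusted p of 0.00983 (edgeR, Benjamini-Hochberg).

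Genes that set the limb field and limb pattern were read beside the Hox genes for positional identity, and 11 of 25 tested passed (3 higher, 8 lower), against 36.5% of all tested genes (18.1% higher, 18.5% lower), with a median log2 fold change of -0.22. Pitx1 and Tbx4, transcription factors of the hindlimb, were both present. Pitx1 had 17.2, 18.4, 20.7 and 19.3 CPM with vehicle and 24.4, 25.5, 23.3 and 29.5 CPM with melatonin, and rose by 0.44 ± 0.10 on the log2 scale with an adjusted p of 0.00531 (edgeR, Benjamini-Hochberg). Tbx4 had 14.7, 14.6, 14.1 and 14.7 CPM with vehicle and 10.1, 9.95, 10.8 and 10.03 CPM with melatonin, a log2 fold change of -0.51 ± 0.08 with an adjusted p of 6.3e-04 (edgeR, Benjamini-Hochberg). The ratio of Pitx1 to Tbx4 counts in a library was 1.17 to 1.47 with vehicle and 2.15 to 2.94 with melatonin. The pair of hindlimb genes thus moved apart, with no overlap between groups in either gene or in their ratio. Tbx5, the forelimb counterpart of Tbx4, had 0, 3, 9 and 10 counts with vehicle and 17, 6, 12 and 13 counts with melatonin, too few for the test. Pitx1 and Tbx4 levels and the high Hoxc10 and Hoxc11 are the values that bear on the muscle named in the labels, and no back muscle library was at hand to set them against.

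**Figure D5:**
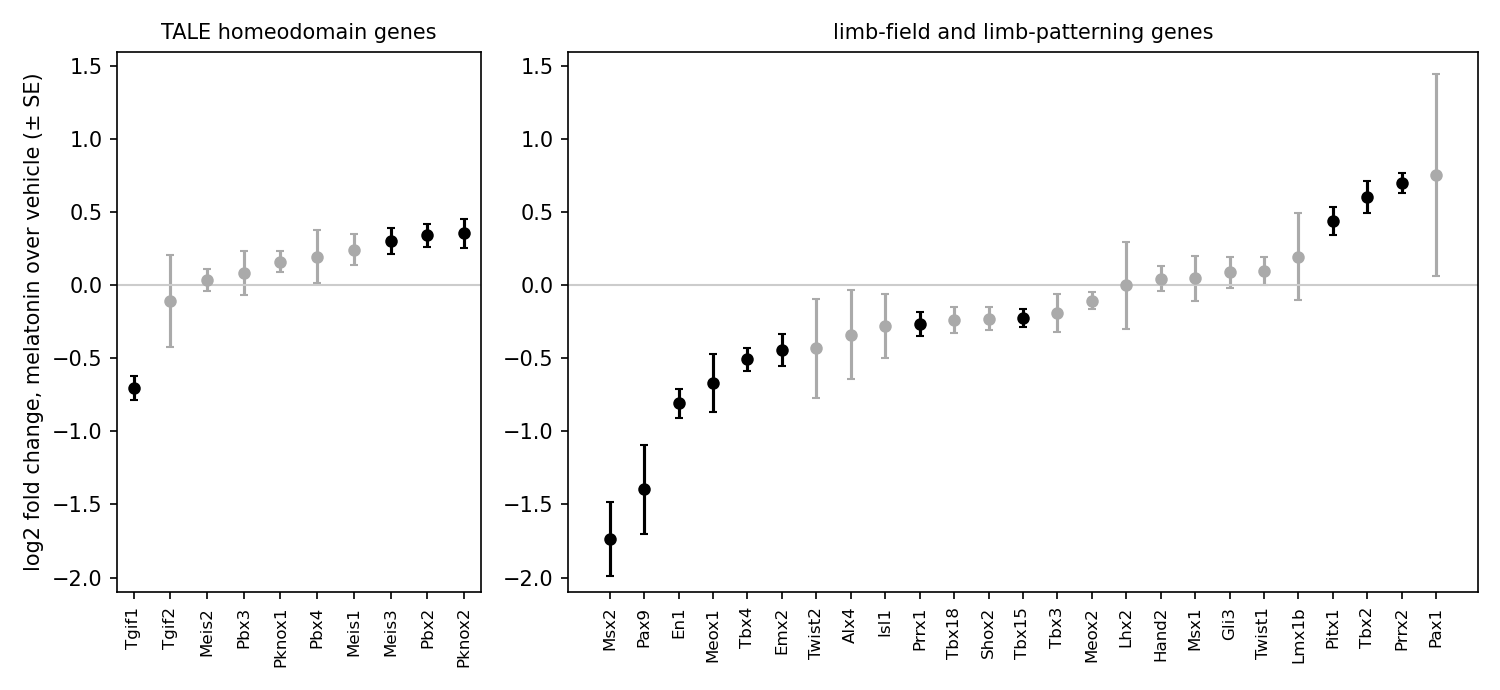
Log2 fold changes of melatonin over vehicle with SE for 10 TALE homeodomain genes and for limb-field and limb-patterning genes, with genes that passed the test in black and others in grey. Of the limb genes, 3 higher and 8 lower passed, with Msx2 lowest at -1.74.

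Of the other limb genes that passed, Msx2 and Pax9 fell the most. Msx2, a target of BMP signals, was at 3.38, 3.84, 4.36 and 2.65 CPM with vehicle and 0.755, 0.945, 0.989 and 1.61 CPM with melatonin, a log2 fold change of -1.74 ± 0.25 with an adjusted p of 4.9e-04 (edgeR, Benjamini-Hochberg). Pax9, a gene of the sclerotome and of the limb's front edge, went from 2.08 ± 0.368 to 0.792 ± 0.388 CPM, at -1.40 ± 0.30. The largest rises were in the mesenchymal homeobox gene Prrx2, from 80.7 ± 2.51 to 131.1 ± 9.43 CPM (0.70 ± 0.07), and in Tbx2, from 9.94 ± 1.01 to 15.1 ± 1.49 CPM (0.60 ± 0.11). Prrx1, the close relative of Prrx2 and a marker of limb mesenchyme, moved the other way, from 152.5 ± 10.6 to 127.1 ± 11.8 CPM (-0.26, adjusted p of 0.0321, edgeR, Benjamini-Hochberg). Prrx1, En1, Emx2, Tbx15 and Meox1 were the other limb genes that fell, and Prrx1 is named here after its value was seen.

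Non-coding genes within the clusters were sparse. Of 19 on the list, 10 are in the table and 6 were tested, and Hotairm1, which lies in the Hoxa cluster, was the 1 that passed. It had 1.27, 2.04, 1.38 and 1.604 CPM with vehicle and 0.465, 0.615, 0.672 and 1.02 CPM with melatonin, a log2 fold change of -1.19 ± 0.27 with an adjusted p of 0.00682 (edgeR, Benjamini-Hochberg). The groups did not overlap. Hotair, made from the Hoxc cluster, had -0.52 ± 0.23 with an adjusted p of 0.106, and Hoxa11os had -0.37 ± 0.14 with an adjusted p of 0.0626 (edgeR, Benjamini-Hochberg). Hoxa11os lies opposite 35.0% of the exonic bases of Hoxa11. As the use of strand is not given, reads from the shared bases cannot be told apart. The count of calls on this list was 2 without melatonin replicate 4 and 2 in DESeq2.

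Of the genes that flank the clusters, 8 of 14 passed (6 higher, 2 lower), against 36.5% of all tested genes, with a median log2 fold change of 0.10. Beyond the Hoxa cluster, Snx10, a gene of vesicle traffic, fell from 35.1 ± 7.91 to 18.1 ± 3.72 CPM (-0.96 ± 0.19) and the adaptor gene Skap2 had -0.26 ± 0.08. On the Hoxd side, Atp5g3, which lies farther from the cluster than Lnpk, a subunit gene of the mitochondrial ATP synthase, rose from 153.1 ± 20.1 to 221.5 ± 42.9 CPM (0.53 ± 0.14). Mtx2 and Lnpk, which are nearer to Hoxd, had 0.10 and 0.09 and did not pass. Calcoco1, on the Hoxc side, rose from 80 ± 4.21 to 112.0 ± 5.38 CPM (0.49 ± 0.06). Skap2 lost its call without vehicle replicate 2 or 3 or melatonin replicate 1, 2 or 3, with adjusted p of 0.0580 to 0.0699 (edgeR, Benjamini-Hochberg), and with library totals alone.

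Polycomb genes, whose products hold Hox genes silent, passed in 15 of 34 cases (11 higher, 4 lower), against 36.5% of all tested genes (18.1% higher, 18.5% lower), with a median log2 fold change of 0.10. Cbx2, a reader of the repressive mark, rose from 6.09 ± 0.611 to 10.5 ± 0.99 CPM (0.78 ± 0.11). Ezh2, the enzyme that writes the mark, rose from 6.02 ± 0.728 to 9.73 ± 1.04 CPM (0.69 ± 0.12). Pcgf5 fell from 10.2 ± 2.29 to 4.28 ± 0.807 CPM (-1.26 ± 0.19), and Yaf2 had -0.41 ± 0.10, a call that was lost with library totals alone (adjusted p of 0.0668, edgeR, Benjamini-Hochberg). The list held members that moved each way.

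The list of Trithorax and demethylase genes holds both genes whose products keep Hox genes active and, in the Kdm5 family, genes whose products remove the active mark. Of these, 5 of 25 passed (4 higher, 1 lower), against 36.5% of all tested genes, with a median log2 fold change of 0.12. Rbbp5, a core part of the complexes that write the active mark, had 0.42 ± 0.13, and Mllt3 had 0.40 ± 0.09. Kdm5b, whose product removes the active mark, had -0.32 ± 0.09. The count was 9 without melatonin replicate 4 and 8 with library totals alone. Rbbp5 lost its call without vehicle replicate 1 or 2 or melatonin replicate 2 or 3 (adjusted p of 0.0510 to 0.0781), and Kdm5b lost its call without melatonin replicate 1 (0.0525) and with library totals alone (0.175) (edgeR, Benjamini-Hochberg).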

How the data were processed

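The authors deposited whole-number counts per Ensembl gene for 8 libraries, 4 given vehicle and 4 given melatonin, with columns named as control read as vehicle. Per the submitters' processing notes, HISAT2 2.0 and StringTie 1.3.3b were used with build mm10, along with Trimmomatic 0.36, FastQC 0.11.2, DESeq2 1.12.4 and bedtools 2.26.0. The sources used here name no counting program, annotation or strand setting. At low values, even counts were 1.81 to 2.04 times as frequent as odd ones (2, 4 and 6 against 1, 3 and 5). Whether mates of a pair were counted separately was not tested. The lowest row total was 11.

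Symbols came from GENCODE M21 (20720 of 20781 identifiers matched, 61 did not). Genes were kept with filterByExpr (16565 tested), scaled by TMM and compared between groups in edgeR 4.0.16 (R 4.3.3) by its quasi-likelihood test, fitted robustly with no covariate, with Benjamini-Hochberg adjustment and a threshold of 0.05. The statistical steps were also run on simulated data with few changed genes and no shift in make-up between the groups. That run could not test the scaling used here. Levels between genes are CPM per kb of the union of exons. The comparison was repeated with limma-voom (limma 3.58.1), DESeq2 1.42.0, other scaling and filters, a minimum log2 fold of 0.3, a threshold of 0.01, a replicate block, and each library left out.

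Members and lists were chosen with earlier results of these data known. The Hox genes that passed, and the 3 others with the smallest p, were given in every library. Of each list the 2 members with the largest change in each direction among those that passed were named, with Pitx1, Tbx4, Tbx5, Meis1 and Meis2. A few genes and sequences are not reported here, and the counts and tests include those genes. The 3 genes most correlated with the Hox gene of smallest p were named among genes of at least 1 CPM on average.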

Additional observations from a re-analysis of the deposited data

Results flagged for a closer look

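In 6 of 116 groups of 4 libraries checked, 1 library lay far from the other 3. Chance flags about 1 in 20 groups. Hoxb8 was lowest in melatonin replicate 3, at 0.168 CPM against 0.407 to 0.449 CPM in the others, and did not pass the test. Hoxc10 was also lowest in melatonin replicate 3, at 41.88 CPM against 45.02 to 45.65 CPM. In the same library Prrx2 was lowest, at 117.0 CPM against 134.6 to 136.9 CPM, and Tbx4 was highest, at 10.83 CPM against 9.95 to 10.07 CPM, still below the vehicle libraries. Pax9 was highest in melatonin replicate 2, at 1.371 CPM against 0.563 to 0.653 CPM. Tgif1 was lowest in vehicle replicate 4, at 42.61 CPM against 52.29 to 53.17 CPM.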

How the results depend on the processing

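Hoxa9, Hoxb9 and Hoxd9 passed under each of the 17 alternatives run for single genes, which leave out the minimum fold. Among these, Hoxd8 and Hoxa5 lost their calls only at the threshold of 0.01. The number of Hox genes called was 4 with a minimum log2 fold of 0.3 and 3 at the threshold of 0.01, of which 1 and 0 were lower, and with library totals alone it was 5 higher and 1 lower. Over all genes, the minimum fold left 3127 calls (1245 higher, 1882 lower), the threshold of 0.01 left 3865 (1754 higher), and library totals alone gave 5099 higher, which moved the share of higher calls from 49.4% to 69.5%. Among lists, the non-coding genes gave 2 calls in DESeq2 and 2 without melatonin replicate 4, the Trithorax genes gave 8 with library totals alone and 9 without melatonin replicate 4, and the flanking genes gave 5 with the replicate block. Leaving that library out of the list counts was chosen after seeing the data.

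Libraries with the same replicate number did not deviate together (correlations of 0.035, -0.046, -0.029 and 0.004), so the numbers were not taken as pairs. With the replicate block, 7 Hox genes passed, with Hoxb2 lost (adjusted p of 0.0573, edgeR) and Hoxa11 gained (0.0464), and 4942 genes in all. Of the list genes named, Skap2 (adjusted p of 0.0730, edgeR) and Pknox2 (0.0525) lost their calls with it.

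Directions turned only for Hox genes that did not pass. With library totals alone, the log2 fold change became 0.1369 for Hoxc4, 0.1043 for Hoxc6, 0.1157 for Hoxc10, 0.07935 for Hoxc11, 0.1005 for Hoxc12, 0.06908 for Hoxc13 and 0.07809 for Hoxd11. In limma-voom it was -0.0718 for Hoxb3 and 0.01037 for Hoxc4, and with the replicate block 0.001311 for Hoxc4. With each library left out in turn, values crossed 0 for Hoxb4 (-0.0007754 to 0.1736), Hoxc4 (-0.1119 to 0.1766), Hoxc10 (-0.06798 to 0.001403), Hoxc12 (-0.2305 to 0.111), Hoxd3 (-0.2007 to 0.212) and Hoxd11 (-0.1735 to 0.0075). The cause was not tested. Hoxb2 also lost its call without a filter on low counts (adjusted p of 0.0531, edgeR) and with library totals alone (0.0702).

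Shares of the Hox total per kb in place of counts were 25.06% (vehicle) and 24.29% (melatonin) for Hoxa, 61.3% and 57.94% for Hoxc, 15.2% for Hoxd with melatonin, 3.606% and 3.746% for groups 1 to 4, 14.14% and 14.29% for groups 5 to 8, and 82.25% and 81.96% for groups 9 to 13. For Hoxa2, Hoxa6, Hoxb2, Hoxb3, Hoxb6, Hoxb7 and Hoxb8 the depth limits what could be detected.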
